A study of Mus musculus with 12 samples.

Results

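Transcripts of 10 mouse genes that mark the secretory and absorptive work of the visceral endoderm were followed on 12 one-colour expression arrays. They encode the serum proteins Afp, Ttr and Trf, the apolipoproteins Apoa1, Apob, Apoc1 and Apoe, and the uptake receptors Amn, Cubn and Lrp2. Every non-control probe that the array design names with one of these symbols was taken, which gave 15 probes of 55681, for 10 of 24025 named genes. Afp, Ttr, Apoa1, Apoc1, Apoe and Amn had 1 probe each, Apob, Cubn and Trf had 2, and Lrp2 had 3. The study examined the T-box transcription factor Tbx3 in pluripotent cells of both origins. There were 4 arrays each of Tbx3-low and Tbx3-high mouse embryonic stem cells (mESC), lines derived from the blastocyst. There were 2 arrays each of induced pluripotent stem cells (iPSC), which are reprogrammed from somatic cells, labelled Tbx3-null or wild type. The sources used here do not give the means of separating mESC by Tbx3, the null allele, the source cells of the iPSC or the number of clones. They also do not state separate cultures for replicates, so p-values measure only the spread between these arrays, which may be technical.

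The visceral endoderm is the epithelium that surrounds the early mouse embryo and feeds it before a placenta forms. It secretes carrier proteins later made by the liver, packages lipid into apolipoprotein B particles, and takes up maternal protein and vitamin complexes from its apical surface. Uptake runs through the giant receptor megalin (Lrp2) and through cubilin (Cubn), which has no membrane anchor of its own and is held and trafficked by amnionless (Amn). Apoe and Apoc1 are also made by many cells outside the endoderm, Apoe as a ligand of lipoprotein receptors and Apoc1 as a small exchangeable apolipoprotein.

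All mESC arrays lay on 1 slide and all iPSC arrays on another, so cell type and slide cannot be told apart. On each slide the compared groups also sat in different columns, so group and column cannot be told apart. The signal at the 75th percentile, to which each array was scaled, was 314 to 458 units on mESC arrays and 699.8 to 1007 units on iPSC arrays. The scanner software called 55.9% to 64.8% of spots well above background on mESC arrays, 62.4% to 63.0% on the arrays labelled Tbx3-null and 68.0% to 68.6% on the wild-type iPSC arrays. The one Tbx3 probe was 1.33 ± 0.08 (SE) higher on the log2 scale in Tbx3-high than in Tbx3-low mESC (limma adjusted p = 7.2e-07). On the arrays labelled Tbx3-null it was not lower but 0.32 ± 0.11 higher than in wild type (limma adjusted p = 0.048), and that difference missed the threshold under 10 of 16 alternatives. The labels do not say which part of Tbx3 was removed, so this probe may lie outside it, and every iPSC direction below rests on the labels. All 10 markers of pluripotent cells were detected on all 12 arrays. Group means of Pou5f1, Nanog and Sox2 differed by at most 0.45 on the log2 scale within a cell type, but other markers differed. In mESC, 4 of the 10 were higher and 2 lower, such as Esrrb by 0.50 and Fgf4 by -0.35 (limma adjusted p = 0.00040 and 0.0036). In iPSC, 2 were higher on the null-labelled arrays, Lin28a by 0.75 and Fgf4 by 0.31 (limma adjusted p = 0.0015 and 0.038).

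The probes are 60 bases long and none shares a run of 16 bases with a probe of another gene. Some probes of 5 members are shown here, since they define what was hybridised, but not every probe described below is. Positions are on mouse build mm9 as the array files give them. No annotation of that build was used, so exons and untranslated regions are not named. The Apoe probe lies at chr7:20281732-20281791 on the minus strand and was printed as 10 spots per array. The Trf probe 1 lies at chr9:103112826-103112885 on the minus strand. The Amn probe spans 149 genomic bases, chr12:112514095-112514243 on the plus strand. The Apoa1 probe, also printed as 10 spots, lies at chr9:46037921-46037980 on the plus strand, and Apob probes 1 and 2 lie at chr12:8012697-8012756 and chr12:8023194-8023253 on the plus strand.
Apoe: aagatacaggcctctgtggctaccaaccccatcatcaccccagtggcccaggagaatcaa
Trf probe 1: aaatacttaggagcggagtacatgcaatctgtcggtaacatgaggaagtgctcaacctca
Amn: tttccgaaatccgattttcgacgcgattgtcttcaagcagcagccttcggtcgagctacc
Apoa1: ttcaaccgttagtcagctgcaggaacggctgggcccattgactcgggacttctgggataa
Apob probe 1: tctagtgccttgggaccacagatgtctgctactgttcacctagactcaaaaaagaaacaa
Apob probe 2: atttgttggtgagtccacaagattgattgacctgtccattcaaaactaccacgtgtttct

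Across the 12 arrays, 7 of the 15 probes, covering 6 genes (Apoc1, Apoe, Amn, Cubn, Lrp2 and Trf), were well above background on every array. The Ttr probe and Lrp2 probe 1 were well above background on none, and the other 6 probes on 1 to 11 arrays. Levels below are log2 of the processed signal minus log2 of the array's 75th percentile, so that 0 is that percentile, and they are not compared between probes.

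**Figure D1:**
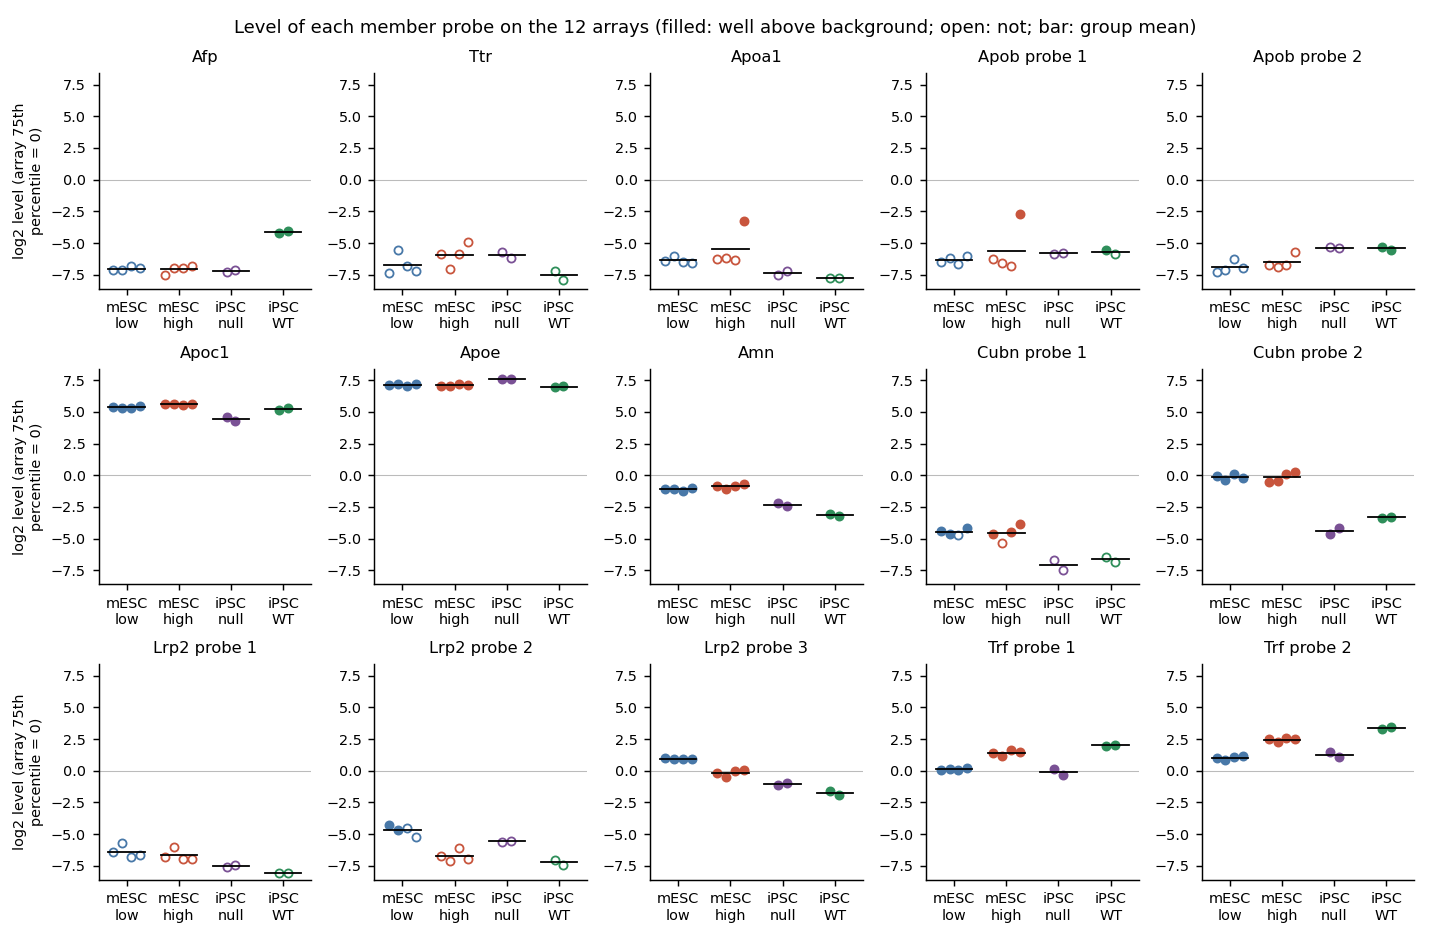
Log2 level of each of the 15 member probes (vertical axis, 0 is the array's 75th percentile) on the 12 arrays, by group. Filled points were well above background, open points were not, and the bar is the group mean. Apoc1 and Apoe stand above 0 on every array, Ttr and Lrp2 probe 1 are open throughout, and Afp is filled only in the 2 wild-type iPSC samples.

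In mESC, 7 of the 15 probes could be tested, because a probe entered only if 1 of the groups compared had it well above background on all of its arrays. Trf (both probes) and Apoc1 were higher in Tbx3-high than in Tbx3-low cells, and Lrp2 probe 3 was lower. Apoe, Amn and Cubn probe 2 did not pass. These 4 calls of 7 stand beside 25.9% of all 30691 probes tested called in mESC, 14.5% higher and 11.4% lower. In iPSC, 9 probes of 8 genes were tested. Afp, Trf (both probes), Apoc1 and Cubn probe 2 were lower on the arrays labelled Tbx3-null than in wild type. Apoe, Amn and Lrp2 probe 3 were higher, and Apob probe 2 did not pass. These 8 calls of 9 stand beside 28.3% of all 36712 probes tested called in iPSC, 15.5% higher and 12.9% lower. The median difference over the tested member probes was -0.80 in iPSC, beside 0.05 over all probes tested, and 0.22 in mESC, beside 0.04. Both medians count Trf with 2 probes, and that of iPSC includes Afp, so they do not show a shift shared by the members. With 1 probe a gene the mESC median was 0.11. Counted so, the iPSC calls were 3 higher and 4 lower, Afp being among the lower. Afp and Apob probe 2 entered the iPSC test through the wild-type group alone, and the 7 probes detected on all 12 arrays all passed there. In whole-culture RNA, fewer cells of a type and less RNA per cell cannot be told apart, which holds for every difference here. Scaling to the probes well above background on all arrays moved the median of all tested probes in iPSC from 0.05 to -0.06. It turned the iPSC split from 5673 higher and 4725 lower to 4121 higher and 5800 lower, and every member call in both comparisons kept its direction and its side of the threshold under it.

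**Figure D2:**
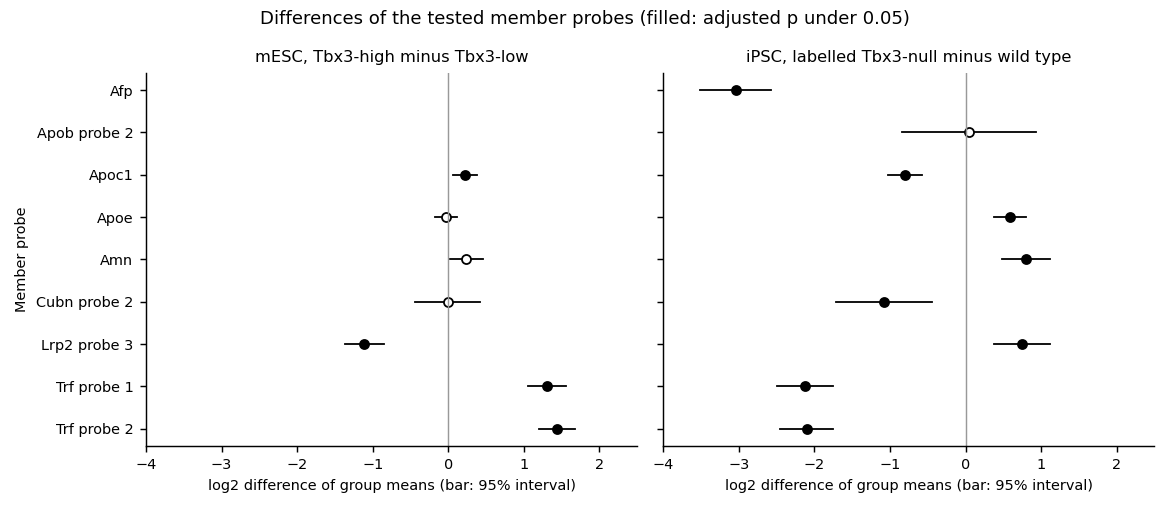
Difference of group means on the log2 scale (horizontal axis) for each tested member probe, in mESC on the left (Tbx3-high minus Tbx3-low) and in iPSC on the right (labelled Tbx3-null minus wild type). Bars are 95% intervals and filled points passed at an adjusted p of 0.05. The 2 Trf probes lie at 1.30 and 1.44 in mESC and at -2.12 and -2.10 in iPSC.

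Afp, alpha-fetoprotein, is the main serum carrier protein of the fetus and a classical product of visceral endoderm. Its probe, printed as 10 spots, stood at -4.22 and -4.05 in the 2 wild-type iPSC samples, where all 10 spots were well above background on both arrays. It stood at -7.26 and -7.10 on the arrays labelled Tbx3-null, where 0 and 1 of the 10 spots were, the latter being marked as an outlier by the scanner software. Wild-type iPSC and the arrays labelled Tbx3-null did not overlap. On all 8 mESC arrays the averaged Afp probe was not well above background, although on Tbx3-high replicates 3 and 4 a single spot of the 10, marked as an outlier and left out, was. Its levels lay at -7.16 to -6.79 in Tbx3-low and -7.49 to -6.79 in Tbx3-high cells. The signals in wild-type iPSC were dim, 54.1 and 55.6 units, against 6.03 and 5.11 units on the arrays labelled Tbx3-null. Because the null-labelled group was not well above background, its level is only bounded: Afp was at least 2.40-fold lower there than in wild type (limma adjusted p = 4.0e-06). That bound sets the wild-type mean against the lowest signal that the software called well above background on each array. Afp entered the test only through the group where it is high, and the p-value rests on null-labelled values below background, so it is no support beyond the difference in detection. In the deposited series table, whose background handling is not stated, the difference was -0.56 with an adjusted p of 0.58 by limma, and with normexp background correction it was -0.48 and still passed. Ttr, transthyretin, carries thyroid hormone and retinol-binding protein. Its signal ran from 2.16 to 17.3 units on the 12 arrays and no array measured it above background, so it was not tested.

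Apoe and Apoc1, which lie next to each other on chromosome 7, moved in opposite directions in iPSC. Apoe stood at 7.59 and 7.56 on the arrays labelled Tbx3-null and at 6.92 and 7.05 in wild-type iPSC. Both null-labelled arrays were above both wild-type arrays, and the difference was 0.59 ± 0.10 (SE), a 1.51-fold higher level (limma adjusted p = 0.0012). In the deposited series table it was 0.34 (limma adjusted p = 0.0501), short of the threshold. The 10 Apoe spots of an array agreed closely, with a coefficient of variation of 2.24% to 6.23%, and none was saturated. In mESC, Apoe stood at 7.08, 7.16, 7.06 and 7.22 in Tbx3-low cells and at 7.03, 7.03, 7.19 and 7.14 in Tbx3-high cells. These groups overlapped, and the difference of -0.03 had a 95% interval of -0.18 to 0.12 (limma adjusted p = 0.77).

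Apoc1 stood at 4.56 and 4.29 on the arrays labelled Tbx3-null and at 5.17 and 5.28 in wild-type iPSC. The null-labelled arrays were both below the wild-type arrays, by 0.80 ± 0.10, or 1.75-fold (limma adjusted p = 0.00026). In mESC it stood at 5.41, 5.30, 5.33 and 5.45 in Tbx3-low cells and at 5.59, 5.61, 5.56 and 5.61 in Tbx3-high cells. The Tbx3-high arrays lay narrowly but wholly above the Tbx3-low arrays, with a difference of 0.22 ± 0.07 (limma adjusted p = 0.045). That call was lost without any 1 of the 8 mESC arrays (limma adjusted p = 0.052 to 0.11), within either slide row (0.21 and 0.32) and in 13 of 23 alternatives in all.

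The next genes along the same cluster are Apoc4 and Apoc2, the latter the cofactor of lipoprotein lipase; they were added after the Apoe and Apoc1 values were seen. Apoc4 stood at -4.89 and -5.09 on the arrays labelled Tbx3-null and at -3.58 and -3.79 in wild-type iPSC, a difference of -1.31 ± 0.17 (limma adjusted p = 0.00035). Apoc2 stood at 0.01 and -0.14 against 0.60 and 0.54, a difference of -0.64 ± 0.15 (limma adjusted p = 0.0099). In iPSC, Apoc1, Apoc4 and Apoc2 were thus all lower on the null-labelled arrays while Apoe was higher. In mESC, Apoc2 was higher in Tbx3-high cells by 0.76 ± 0.10 (limma adjusted p = 0.00031), whereas the 0.25 ± 0.12 of Apoc4 did not pass (limma adjusted p = 0.16).

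**Figure D3:**
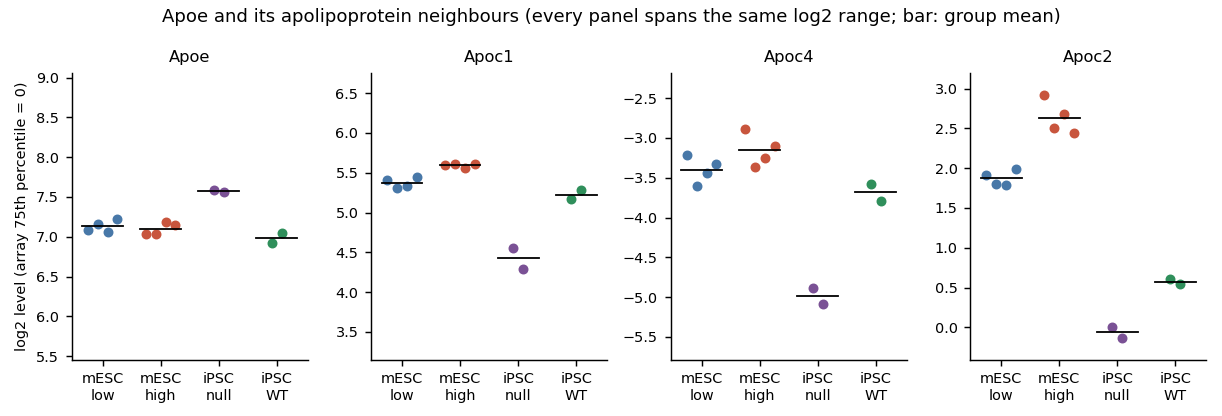
Log2 level (vertical axis, 0 is the array's 75th percentile) of Apoe and its neighbours Apoc1, Apoc4 and Apoc2 on the 12 arrays, by group, each panel spanning the same log2 range. The bar is the group mean. In iPSC the null-labelled arrays lie above wild type for Apoe and below it for the other 3 genes.

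Apoa1 and Apob, the structural proteins of high-density and of chylomicron and low-density lipoproteins, were dim throughout. Apoa1 was well above background on 1 array and each Apob probe on 2. Apoa1 stood at -6.60 to -5.99 on the 4 Tbx3-low arrays and at -6.27, -6.15 and -6.30 on 3 Tbx3-high arrays, none of them well above background. On Tbx3-high replicate 4 it stood at -3.26, a signal of 32.8 units, with all 10 spots well above background, 3 of which were marked as outliers and left out of the average. On the 4 iPSC arrays it lay at -7.80 to -7.24 and was not well above background. Apob probe 1 behaved alike: Tbx3-high replicate 4 stood at -2.71 (48.1 units) and the other 7 mESC arrays at -6.84 to -5.99, none of those 7 well above background. In iPSC it was well above background on wild-type replicate 1 alone (21.3 units). Apob probe 2, which lies in another stretch of the transcript, also had its highest mESC value on that array, at -5.70 against -7.32 to -6.28, but was not well above background there. In iPSC, Apob probe 2 stood at -5.31 and -5.52 in wild type, both well above background, and at -5.32 and -5.41 on the arrays labelled Tbx3-null, neither well above it. Those groups overlapped, and the difference was 0.05 with a 95% interval of -0.84 to 0.93 (limma adjusted p = 0.95).

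Because 1 mESC array carried the Apoa1 and Apob probe 1 signals, the 10 members and a list of 30 further serum and lipoprotein genes were read array by array, a choice made after the Apoa1 and Apob values were seen. On Tbx3-high replicate 4, 8 of these 40 genes exceeded every other mESC array by over 1 log2 unit: Apoa1, Apob, Alb (albumin), Ambp, Hp (haptoglobin), Kng1 (kininogen), Serpina1a (an antitrypsin) and Serpinc1 (antithrombin). On Tbx3-high replicate 3 there was 1 such gene, Lcat, and on the other 6 mESC arrays there were 0. Over all probes, 0.871% stood out in this way on Tbx3-high replicate 4 and 0.154% to 0.950% on the 8 mESC arrays. Serpina1a stood at 0.60 there and at -4.30 to -3.56 on the other 7 arrays, all of them well above background. Alb stood at -3.66 there and at -7.26 to -6.57 on the other 7, none of which was well above background. Afp and Ttr were not well above background on this array. Ttr still had its highest mESC value there, at -4.94 against -7.38 to -5.59 on the other 7. What sets this array apart was not tested. Without it the mESC comparison called 3 member probes instead of 4, losing Apoc1, and the serum and lipoprotein list held 8 higher and 4 lower genes instead of 8 and 3.

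**Figure D4:**
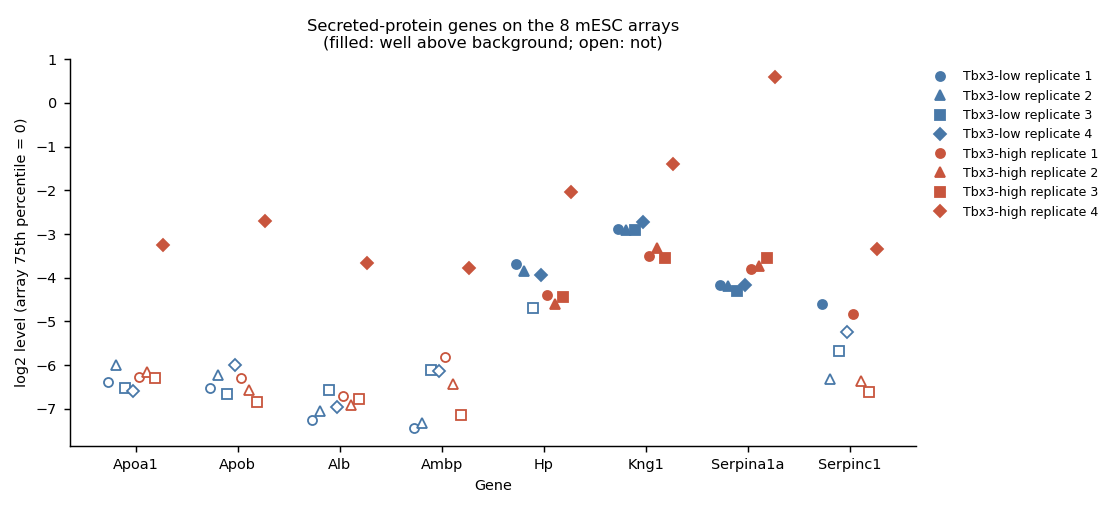
Log2 level (vertical axis, 0 is the array's 75th percentile) of the 8 secreted-protein genes on the 8 mESC arrays, with replicates by marker shape. Filled points were well above background and open points were not. Tbx3-high replicate 4 lies above the other 7 arrays for every gene drawn, since the genes were chosen for that.

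Trf, transferrin, carries iron in serum and is a secreted product of visceral endoderm and liver. Trf probe 1 stood at 0.05, 0.11, 0.06 and 0.20 in Tbx3-low mESC and at 1.43, 1.12, 1.61 and 1.48 in Tbx3-high mESC. Trf probe 2 stood at 1.03, 0.85, 1.07 and 1.13 in Tbx3-low and at 2.49, 2.25, 2.57 and 2.53 in Tbx3-high mESC. For both probes the mESC groups were far apart. The differences were 1.30 ± 0.11 and 1.44 ± 0.11, or 2.47-fold and 2.72-fold higher in Tbx3-high cells (limma adjusted p = 1.4e-05 and 5.2e-06). Within slide rows 1 and 2 the difference of probe 2 was 1.44 and 1.45.

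In iPSC, Trf probe 1 stood at 0.10 and -0.31 on the arrays labelled Tbx3-null and at 1.99 and 2.06 in wild type. Trf probe 2 stood at 1.47 and 1.06 against 3.28 and 3.46. The null-labelled arrays lay below wild type for both probes, by 2.12 ± 0.17 and 2.10 ± 0.16, or 4.36-fold and 4.30-fold (limma adjusted p = 9.7e-06 and 7.4e-06). The 2 probes, which lie in the same transcript, had a Pearson r of 0.99 over the 12 arrays after each cell type's mean was removed, given as a description. Of the transferrin receptors, Tfrc, which brings iron-loaded transferrin into most cells, moved the other way. It was lower in Tbx3-high mESC by 0.47 ± 0.08 (limma adjusted p = 0.0019) and higher on the arrays labelled Tbx3-null by 0.74 ± 0.12 (limma adjusted p = 0.0012). Tfr2, a second receptor known from liver and erythroid cells, was lower on the null-labelled arrays by 1.85 ± 0.15 (limma adjusted p = 1.4e-05).

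Amn stood at -1.10, -1.06, -1.22 and -1.05 in Tbx3-low and at -0.83, -1.10, -0.87 and -0.68 in Tbx3-high mESC. These overlapped, and the difference of 0.24 ± 0.10 did not pass (limma adjusted p = 0.10), although it did without Tbx3-high replicate 2 (0.31, limma adjusted p = 0.034). In iPSC, Amn stood at -2.21 and -2.44 on the arrays labelled Tbx3-null and at -3.03 and -3.22 in wild type. It was higher on both null-labelled arrays, by 0.80 ± 0.14, or 1.74-fold (limma adjusted p = 0.0020).

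Cubn, whose protein Amn carries to the membrane, did not follow it. Cubn probe 2 stood at -0.06, -0.41, 0.12 and -0.21 in Tbx3-low and at -0.53, -0.48, 0.13 and 0.28 in Tbx3-high mESC. The groups overlapped, and the difference of -0.01 had a 95% interval of -0.44 to 0.42 (limma adjusted p = 0.98). In iPSC the same probe stood at -4.62 and -4.19 on the arrays labelled Tbx3-null and at -3.37 and -3.28 in wild type. The null-labelled arrays were lower, by 1.08 ± 0.29 (limma adjusted p = 0.018). That call was lost without null replicate 1 (limma adjusted p = 0.13), without wild-type replicate 1 (0.070) or 2 (0.081), and with normexp background correction (-0.42, 0.15). Cubn probe 1 was well above background on 3 of 4 arrays in each mESC group, at -5.37 to -3.82, and on no iPSC array, and was not tested.

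Lrp2 was measured well by 1 of its 3 probes, the only one that the array design places on a RefSeq transcript. Lrp2 probe 3 stood at 1.04, 0.94, 0.93 and 0.93 in Tbx3-low and at -0.19, -0.47, 0.01 and 0.04 in Tbx3-high mESC. All 4 Tbx3-high arrays lay below all 4 Tbx3-low arrays, by 1.11 ± 0.12, or 2.16-fold (limma adjusted p = 4.6e-05), and by 1.32 and 0.90 within slide rows 1 and 2. In iPSC it stood at -1.11 and -0.95 on the arrays labelled Tbx3-null and at -1.63 and -1.92 in wild type. It was higher on the null-labelled arrays by 0.75 ± 0.17, or 1.68-fold (limma adjusted p = 0.0077), a call lost without null replicate 2 (limma adjusted p = 0.052) or wild-type replicate 2 (0.063). Lrp2 probe 2, from an Ensembl transcript, was well above background only on Tbx3-low replicates 1 and 2 and was not tested. Its Tbx3-low arrays lay at -5.20 to -4.25 and its Tbx3-high arrays at -7.10 to -6.10, the latter not above background. Lrp2 probe 1, also from an Ensembl transcript, lay at -8.06 to -5.74 over the 12 arrays and was detected on none.

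Whether the change differed between the cell types was tested as (Tbx3-high minus Tbx3-low) minus (wild type minus labelled Tbx3-null). Of the 7 member probes tested, 2 were higher and 4 lower, beside 28.8% of all 30332 probes tested, 17.2% higher and 11.6% lower. Scaling to detected probes turned the split of all probes from 5221 higher and 3514 lower to 3459 and 4486 and kept these member calls. Amn (1.04 ± 0.17, limma adjusted p = 0.0011) and Apoe (0.56 ± 0.12, limma adjusted p = 0.0049) had a positive difference. Apoc1 (-0.58 ± 0.13, limma adjusted p = 0.0056), Trf probe 1 (-0.82 ± 0.20, limma adjusted p = 0.010), Trf probe 2 (-0.66 ± 0.19, limma adjusted p = 0.023) and Cubn probe 2 (-1.09 ± 0.34, limma adjusted p = 0.033) had a negative one. For Trf the direction was the same in both cell types and the iPSC difference was the larger. Lrp2 probe 3, lower in Tbx3-high mESC and in wild-type iPSC, gave -0.37 with a 95% interval of -0.81 to 0.08 (limma adjusted p = 0.20). The Cubn call was lost under 10 of 23 alternatives, that of Trf probe 2 under 3 and that of Apoe under 1, the series table (0.23, limma adjusted p = 0.28).

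The other secreted products of liver and visceral endoderm, a list of 30 genes, were lower on the arrays labelled Tbx3-null wherever they passed. Lists are counted with 1 probe a gene, by the adjusted p of the fit of all probes. In a separate fit of 1 probe a gene, 34.6% of all 15875 genes tested were called in mESC, 19.4% higher and 15.1% lower. In iPSC, 38.0% of all 17745 were called, 21.5% higher and 16.5% lower. By that fit the higher calls in mESC were 10 among endoderm regulators, not 9, and 9 among sterol genes, not 8. In iPSC there were 6 lower endocytic genes, not 5, and 4 higher fibroblast markers, not 3. In iPSC, 24 of the 30 were tested, 0 were higher, 12 were lower and 12 did not pass, with a median difference of -0.78, and without null replicate 2 there were 1 higher and 9 lower. In mESC, 20 were tested, 8 were higher, 3 were lower and 9 did not pass, with a median of 0.26. Apom, which carries sphingosine-1-phosphate on lipoproteins, was 8.02-fold lower on the null-labelled arrays (limma adjusted p = 2.4e-07) and higher in Tbx3-high mESC by 0.89 ± 0.10 (limma adjusted p = 5.8e-05). Apoa2, of high-density lipoprotein, was lower on the null-labelled arrays by 2.58 ± 0.09 (limma adjusted p = 3.3e-08) and higher in Tbx3-high mESC by 0.27 ± 0.06 (limma adjusted p = 0.0093). Apod, a lipocalin, was higher in Tbx3-high mESC by 1.46 ± 0.10 (limma adjusted p = 2.7e-06) and lower on the null-labelled arrays by 2.95 ± 0.15 (limma adjusted p = 4.1e-07). Serpinf1 and Mttp, the transfer protein that loads lipid onto Apob, were lower in Tbx3-high mESC, by 1.62 ± 0.15 and 0.65 ± 0.07 (limma adjusted p = 2.1e-05 and 6.3e-05).

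Among 24 regulators and markers of visceral endoderm, 9 were higher, 5 lower and 8 did not pass of 22 tested in mESC. The lower calls were 3 without Tbx3-low replicate 1, 3 or 4 or without Tbx3-high replicate 2 or 4. In iPSC, 3 were higher, 10 lower and 10 did not pass of 23. Hnf4a, a nuclear receptor that drives liver and visceral endoderm genes, was higher in Tbx3-high mESC by 0.77 ± 0.09 (limma adjusted p = 0.00011) and lower on the null-labelled arrays by 1.13 ± 0.13 (limma adjusted p = 0.00014). Gata6, which starts the primitive endoderm programme, was higher in Tbx3-high mESC by 1.49 ± 0.13 (limma adjusted p = 1.5e-05) and lower on the null-labelled arrays by 1.90 ± 0.19 (limma adjusted p = 5.6e-05). Sox17 was higher in Tbx3-high mESC by 0.57 ± 0.15 (limma adjusted p = 0.016) and lower on the null-labelled arrays by 0.75 ± 0.22 (limma adjusted p = 0.027), the latter call being lost in 6 of 16 alternatives. Gata4, Foxa2 and Sox7 passed in neither comparison: in mESC their differences were 0.36, 0.40 and -0.16, and in iPSC they were -0.00, -0.45 and 0.21. Eomes was higher in Tbx3-high mESC by 1.39 ± 0.10 and lower on the null-labelled arrays by 1.66 ± 0.15 (limma adjusted p = 4.5e-06 and 2.7e-05). Lefty1, a Nodal inhibitor also made by pluripotent cells, moved the other way, 8.01-fold lower in Tbx3-high mESC (limma adjusted p = 1.0e-07).

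Of 20 endocytic receptors and adaptors, 19 were tested in each cell type. In mESC, 3 were higher, 1 lower and 15 did not pass, with a median of 0.06, so that the share called was below that over all genes. In iPSC, 4 were higher, 5 lower and 10 did not pass, with a median of -0.17, and the lower calls were 3 without wild-type replicate 1. Dab2, the adaptor that links megalin to clathrin, did not pass in mESC (0.36 ± 0.17, limma adjusted p = 0.14) or in iPSC (-0.53 ± 0.24, limma adjusted p = 0.14). Lrpap1, a chaperone of megalin and related receptors, did not pass in mESC (-0.13 ± 0.08, limma adjusted p = 0.27) or in iPSC (-0.25 ± 0.11, limma adjusted p = 0.13). Lrp1, a receptor for Apoe-bearing remnants, was higher in Tbx3-high mESC by 0.76 ± 0.12 (limma adjusted p = 0.00062) and lower on the null-labelled arrays by 1.04 ± 0.17 (limma adjusted p = 0.0012). Lrp8, a receptor for Apoe and reelin, was higher on the null-labelled arrays by 1.85 ± 0.15 (limma adjusted p = 1.0e-05).

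Genes of sterol synthesis, uptake and export, the lipid that Apoe particles carry, were tested in full, 18 of 18 in each cell type. In mESC, 8 were higher in Tbx3-high cells, 2 lower and 8 did not pass, with a median of 0.25. The higher calls there were 6 to 8 without 1 array, and 2 and 3 within slide rows 1 and 2, which hold fewer arrays. In iPSC, 8 were higher on the null-labelled arrays, 2 lower and 8 did not pass, with a median of 0.34. Set against the Tbx3 labels, these directions are opposite. In the test of the difference between cell types, 11 were higher, 1 lower and 6 did not pass, with a median of 0.65. Over all probes tested there, 17.2% were higher and 11.6% lower. In the separate fit of 1 probe a gene, the nearer match, 3606 were higher and 2321 lower of 15710 tested. The 2 lower calls in iPSC fell to 0 with the iPSC arrays alone. Mvd and Lss, of the synthesis pathway, were higher on the null-labelled arrays by 0.98 ± 0.09 and 0.93 ± 0.09 (limma adjusted p = 3.0e-05 and 3.5e-05). Cyp51, of the same pathway, went the other way, with a mean of -0.48 on the null-labelled arrays and 0.12 in wild-type iPSC. Its mean was 0.90 in Tbx3-high and 0.37 in Tbx3-low mESC. Abca1, the lipid exporter that loads Apoa1 and Apoe, was higher in Tbx3-high mESC by 1.28 ± 0.09 (limma adjusted p = 3.4e-06).

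Markers of parietal endoderm passed mostly in the direction of Trf, whereas fibroblast markers passed in both directions. Only 5 blood markers in mESC and 7 in iPSC could be tested. The part of these 3 kinds of marker in the member differences was not tested. Of 14 parietal endoderm markers, 9 were higher and 2 lower of 13 tested in mESC, and 2 were higher and 10 lower of 14 in iPSC. Leaving out 1 array took away at most 1 of the 2 minority calls in each comparison. In mESC 1 lower call was left without any 1 Tbx3-low array or without Tbx3-high replicate 1 or 2. In iPSC 1 higher call was left without replicate 1 of either group. The mean level of that list ran from 0.84 to 1.14 in Tbx3-high and 0.35 to 0.49 in Tbx3-low mESC, and from -0.27 to -0.22 on the null-labelled arrays and 0.55 on both wild-type iPSC arrays. Nid1, a basement membrane protein, was higher in Tbx3-high mESC by 1.77 ± 0.08 and lower on the null-labelled arrays by 2.09 ± 0.11 (limma adjusted p = 1.5e-07 and 8.0e-07). The 2 lower calls in mESC were Lamb1, by 0.42 ± 0.09 (limma adjusted p = 0.0060), and Thbd. Thbd was not well above background in Tbx3-high cells and was at least 1.40-fold lower there. The 2 higher calls in iPSC were Sparc and Vim, by 0.45 ± 0.09 and 0.37 ± 0.11 (limma adjusted p = 0.0051 and 0.033). Of the parietal markers 0 to 2 were detected on no array of a group. Of 15 fibroblast markers, 3 or 4 of which were detected on no array of a group, 4 were higher and 2 lower of 10 tested in mESC, and 3 were higher and 3 lower of 12 in iPSC, the higher calls being 1 without null replicate 1 or wild-type replicate 2. Their mean level ran from -3.06 to -2.83 in Tbx3-high and -3.22 to -3.08 in Tbx3-low mESC, and from -3.45 to -3.44 on the null-labelled arrays and -3.43 to -3.32 in wild-type iPSC. Col1a1 was higher in Tbx3-high mESC by 1.54 ± 0.11 and lower on the null-labelled arrays by 2.32 ± 0.15 (limma adjusted p = 2.6e-06 and 3.2e-06). Pdgfrb moved alike, by 1.83 ± 0.10 and -2.22 ± 0.15 (limma adjusted p = 5.9e-07 and 2.8e-06). Tagln, a smooth muscle protein, moved the other way, lower in Tbx3-high mESC by 1.36 ± 0.11 and higher on the null-labelled arrays by 0.56 ± 0.16 (limma adjusted p = 9.6e-06 and 0.028). Of 10 blood and macrophage markers, 3 in each group were detected on no array. In mESC 2 were higher of 5 tested, and in iPSC 2 were lower of 7. These calls stand beside 34.6% of all genes called in mESC and 38.0% in iPSC, with 1 probe a gene. The mESC count was 1 without Tbx3-low replicate 2, 3 or 4 or Tbx3-high replicate 2, 3 or 4. Of the 10 pluripotent cell markers, 4 were higher and 2 lower in mESC, and 2 were higher in iPSC. The lower calls in mESC were 1 without Tbx3-low replicate 3 or 4 or Tbx3-high replicate 2 or 4, and the higher calls in iPSC were 1 without any 1 iPSC array.

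**Figure D5:**
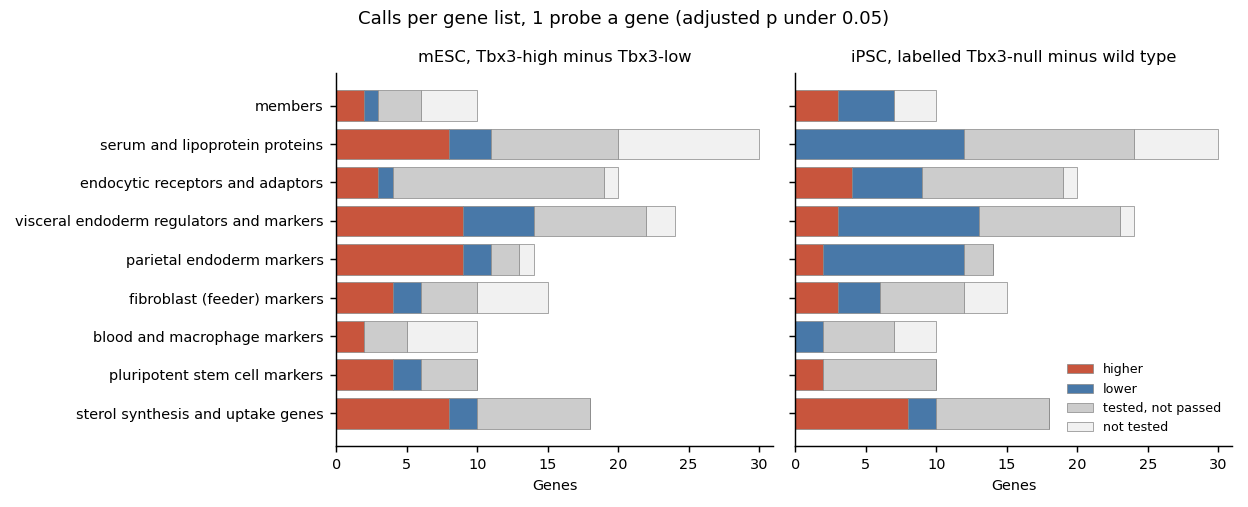
Number of genes (horizontal axis) called higher, called lower, tested without passing, or not tested, in each list, with 1 probe a gene, in mESC on the left and iPSC on the right. In iPSC the 30 serum and lipoprotein genes hold 12 lower and 0 higher calls, and the 18 sterol genes hold 8 higher and 2 lower.

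For each member probe above background on all 12 arrays, the most similar genes were sought among 14864 others by Pearson r over the 12 arrays, after each cell type's mean was removed. The values are descriptions, since arrays of a group share their treatment. Trf probe 2 was nearest to Gm525 (r = 0.995), Slc13a5 (0.995) and Bcl6 (0.994), and Trf probe 1 to Plagl1 (0.996), Slc13a5 (0.993) and Bcl6 (0.992). Apoc1 was nearest to 8030474K03Rik (0.992), Glrx (0.983) and Ildr1 (0.982). Apoe was nearest to Tmem160 (0.985), Gfus (0.984) and Atp6v1e1 (0.982), and Amn to Tbc1d22b (0.971), Cntrob (0.967) and Nme7 (0.960). Lrp2 probe 3 was nearest to Cdh3 (0.982), Spire1 (0.981) and Sash1 (0.981), and Cubn probe 2 to Tsn (0.970), Tjp1 (0.951) and Abca3 (0.939). Among the members, Apoc1 ran with Trf (r = 0.92 and 0.91 for Trf probes 1 and 2) and against Apoe (-0.85), and Lrp2 probe 3 ran against Trf (-0.85 and -0.89). Amn ran with Apoe (0.81) and against Cubn probe 2 (-0.63).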

How the data were processed

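Per the labels, total RNA from 12 samples was labelled with Cy3 (50 ng each) and hybridised 1 sample to an array. The authors deposited Agilent Feature Extraction 10.7.3.1 output, whose processed signal is, per the file headers, a background-subtracted intensity on a linear scale, not scaled between arrays. They also deposited a series table of log2 values, whose medians were 6.58 to 6.61 and with unstated scaling and background handling, used as an alternative. Spots of a probe were averaged after outlier-marked spots were left out, and log2 of the processed signal was taken minus the array's 75th percentile. One fit of 4 group means over the 12 arrays was made with limma 3.58.1 (R 4.3.3), and adjusted p-values are Benjamini-Hochberg over all probes tested, with a threshold of 0.05. The groups share 1 estimate of spread, so iPSC errors and p-values rest also on the more numerous mESC arrays. With the iPSC arrays alone, 7884 probes passed, 3482 higher and 4402 lower, against 10398 in the shared fit. With 1 probe a gene, the members then held 3 higher and 4 lower calls, as in the shared fit. The endocytic list held 2 higher and 3 lower instead of 4 and 5. Only probes well above background on all arrays of 1 of the groups compared were tested. The fit was tested on simulated data in which 200 probes were changed. It made 162 calls in mESC, 116 in iPSC and 112 in the difference test. Far more probes passed in the data, so the adjusted threshold there was met at a larger unadjusted p. The shares that follow hold for the simulation and are not those of the data. Of changes of 0.5 on the log2 scale it called 46.3% in mESC, 14.9% in iPSC and 10.4% in the difference test. Of changes of 1 it called 85.1%, 62.7% and 55.2%. A gene that did not pass is not shown to be unchanged, above all in iPSC with its fewer arrays. Array precision is limited by the number of arrays. Names came from RefSeq by accession for 27656 probes and by symbol for 3401 and by synonym for 307, with the file's name kept for 1773 and 22544 unnamed. A gene outside the members is represented by its brightest probe on average. Named besides the members were, of each list, the 4 passing genes with the smallest adjusted p in mESC and 2 in iPSC, plus a fixed set of regulators and receptors; not all are printed, and some are not reported here. The members and lists were chosen with earlier results of these data known.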

Additional observations from a re-analysis of the deposited data

Results flagged for a closer look

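Of 30 sets of 4 mESC values (15 probes in Tbx3-low and in Tbx3-high cells), 5 held a value far from the other 3 by Dixon's criterion, which chance meets in about 1 set in 20. In Tbx3-high replicate 4 these were Apoa1 at -3.26, Apob probe 1 at -2.71 and Apob probe 2 at -5.70, the last not well above background. Lrp2 probe 1 in Tbx3-high replicate 2 stood at -6.04 and was not above background on any array. Lrp2 probe 3 in Tbx3-low replicate 1 stood at 1.04, beside 3 values within 0.93 to 0.94, so that the gap is small in size.

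The Tbx3 contrast differed between mESC and iPSC, by the interaction in the limma fit, for 6 member probes of 7 tested. The differences were 1.04 for Amn, 0.56 for Apoe, -0.58 for Apoc1, -1.09 for Cubn probe 2, -0.82 for Trf probe 1 and -0.66 for Trf probe 2, each being (Tbx3-high minus Tbx3-low) minus (wild type minus labelled Tbx3-null). Cell type and slide coincide, so the 2 cannot be told apart.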

How the results depend on the processing

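Over 23 member results and 458 recomputed values, 412 kept direction and side of the threshold, 35 fell short of it, 1 passed it and 10 turned sign; the cause was not tested. Every value that turned sign belongs to a member difference that had not passed. Cubn probe 2 in mESC was 0.083 with array weights, 0.25 within slide row 2 and -0.15 to 0.12 without 1 array. Apoe in mESC was 0.024 within slide row 2. Apob probe 2 in iPSC was -0.059 with scaling over detected probes, -0.10 in the series table and -0.0537 to 0.15 without 1 array. Among 88 results of other named genes, those that turned sign in iPSC, none having passed, were Gata4 (0.096 with quantile normalization, 0.00459 with normexp, -0.14 to 0.13 without 1 array), Nanog (-0.061 with quantile normalization, -0.091 in the series table), Sox2 (-0.016 in the series table), Foxa2 (0.13 with normexp) and Sox7 (-0.052 to 0.47 without 1 array).

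Of all probes tested, 7946 passed in mESC, 10398 in iPSC and 8735 for the difference between them. Within slide rows 1 and 2, which hold fewer arrays, 4714 and 4430 passed in mESC, and with slide row as a block 9410, with the same number of member probes (4) as the main setting; with 1 probe per gene 6750 and with the mean of a gene's probes 6798 passed in iPSC, where fewer rows were tested. Leaving out 1 array gave 6686 to 7263 in mESC (3 to 4 member probes), 6872 to 8298 in iPSC (6 to 7) and 6098 to 8280 for the difference (4 to 6). Replicate numbers did not pair the arrays (same-numbered correlations of deviations 0.07 to 0.12 in mESC, 0.01 in iPSC). With the replicate block, 8007, 9529 and 8481 probes passed, and of the member calls Apoc1 in mESC alone was lost (adjusted p = 0.090). Dim signals limit Ttr, Apoa1, Apob, Afp, Cubn probe 1 and Lrp2 probes 1 and 2.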
